A study of Rattus norvegicus with 12 samples.

Results

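Lyz2, the gene of rat lysozyme, was described here together with a set of transcripts that are typical of monocytes and macrophages, namely Ctss, Csf1r, Itgam, Aif1, Mpeg1, Emilin2, Fn1 and Vcan. The members were the rows of the deposited expression table that carry these gene names, and 9 of the 10 names listed were found among 29539 genes. Cybb was not analysed here. A filter on low counts kept 8382 genes, which included 8 members, and Vcan did not pass it.

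The libraries were made from purified red blood cells (RBCs) of wild type male Wistar rats aged 11 weeks. The whole blood was mixed with the anticoagulant CPDA and either processed without storage (Cont) or kept at 4 °C for 10 days (10d) or 20 days (20d), with 4 libraries in each group. No group was treated in another way, and all of them contain CPDA. The cells were spun and washed 5 times with removal of plasma and buffy coat, the layer that holds the leukocytes. The blood of each rat was divided among the storage conditions, and the paper describes the samples as paired. The rat behind each replicate number was not given. No pairing was used in the main fit, and the replicate number was a block in an alternative fit. The p-values measure the spread between these 4 libraries per group, which may in part be technical.

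Lysozyme cleaves the cell wall of bacteria, and rodents carry a copy (Lyz2) that is expressed by monocytes, macrophages and neutrophils. Monocytes leave the bone marrow, circulate in blood and can become macrophages in tissues. Their identity depends on the receptor for colony stimulating factor 1 (Csf1r), and they carry integrins for adhesion, cathepsins for protein breakdown in lysosomes and pore-forming proteins against engulfed microbes. Mature RBCs of mammals have no nucleus and make no new messenger RNA, and bulk libraries cannot separate fewer cells of a type from less RNA per cell.

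Total counts were between 65735930 and 85996710 per library. Genes for red cell proteins dominated every library, with a summed level of 479205 to 554859 TPM (transcripts scaled per length and to a common sum in each library) over the 7 red cell markers that were found. Among the member transcripts the 10d replicate 1 library held the lowest count of the 10d group for Lyz2, Csf1r, Itgam, Aif1, Mpeg1 and Emilin2. For Emilin2 the gap was small, with 129 counts beside 130 in 10d replicate 2. Replicate 1 also held the lowest Lyz2 and Itgam counts in Cont and in 20d. Results that rest on 10d replicate 1 are given with and without it.

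The promoters of the members are described first, and a link between them and the change with storage was not tested. RefSeq windows (build GRCr8, 250 bases before to 50 bases after a start site) were found for 7 of the 9 members, as 9 windows in all, and there was none for Aif1 or Fn1. The letters GAGGAA, which hold the core of the sequence bound by the myeloid factor PU.1 (Spi1), were searched on both strands. They occurred in 6 of 9 member windows, belonging to 5 genes, and in 27.6% of 33469 windows of all genes. Emilin2 entered with overlapping windows that hold the same matches, so the share of windows counts these matches repeatedly. The stretches of 30 bases around the match nearest to the start site are shown for the 5 genes with a match. These include Emilin2, which hardly moved, and members that fell. The windows of Mpeg1, which also fell, and of Vcan held no match. Capitals mark the match, which reads TTCCTC where it lies on the opposite strand.
Lyz2: ctgtcaggaaagGAGGAActtggaggatgc
Ctss: atgaaagttcacTTCCTCgttgtggatact
Csf1r: gacaagaacgtgTTCCTCtgttcccatccc
Itgam: ggctttagtggcTTCCTCaaagtgtttgtg
Emilin2: tgggtccccccgGAGGAActaactgatgga
The stretches lie at chr7:54798040-54798069 (minus strand) for Lyz2, chr2:185775369-185775398 (plus strand) for Ctss, chr18:56834272-56834301 (plus strand) for Csf1r, chr1:192089541-192089570 (plus strand) for Itgam and chr9:118667202-118667231 (minus strand) for Emilin2. The match began 46 bases before the start site in Lyz2, 15 in Ctss, 95 in Csf1r, 39 in Itgam and 132 in Emilin2. A match of these letters is a description of the window and not a measured binding site.

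Lyz2 (ENSRNOG00000005825, mRatBN7.2 chromosome 7, 52906811 to 52912106, minus strand) was by far the most abundant member. Its counts in Cont replicates 1 to 4 were 3357, 6719, 4763 and 4103. In the 10d libraries they were 241, 1241, 1208 and 830, and in the 20d libraries 81, 136, 177 and 173. Every 10d library was below every Cont library, and every 20d library was below every 10d library, so the 3 groups did not overlap. Scaled to CPM (counts per 1000000 counts of the library) with TMM factors, which correct for differences in RNA composition between libraries, the level was 51.5 ± 13.3 in Cont, 12.4 ± 6.49 in 10d and 2.11 ± 0.664 in 20d (mean ± SD, n = 4). The log2 fold change was -2.06 (SE 0.33) in 10d against Cont, with an adjusted p of 0.000384 by edgeR's quasi-likelihood test over all 8382 genes. It was -4.61 (SE 0.38) in 20d against Cont, a 24.4-fold lower level, with an adjusted p of 1.39e-07. The later step, 20d against 10d, was -2.55 (SE 0.36, adjusted p = 0.00014 by edgeR). The study itself picked Lyz2 on these libraries for its fall, so these tests are not independent evidence of its direction. The paper also reports a qPCR assay of all its samples, in which Lyz2 decreased with storage time. The change in the later 10 days minus that in the first 10 days was -0.49 (SE 0.58, adjusted p = 0.719 by edgeR), so a difference between the 2 intervals was not detected. This value moved with single libraries, to -1.11 (adjusted p = 0.11, edgeR) without 10d replicate 1, -0.08 without 10d replicate 2 and -0.09 without 10d replicate 3.

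Because the groups share libraries, the comparisons of 10d and 20d with Cont are not independent of each other, and each is given by its own values. In 10d against Cont, 5 of the 8 tested members were lower and none was higher, beside 5.68% of all genes tested that were lower and 7.86% that were higher. In 20d against Cont, 7 of 8 were lower and none higher, beside 21.1% and 12.8% of all genes. In 20d against 10d, 3 of 8 were lower and none higher, beside 12.6% and 3.38% of all genes. The median log2 fold change over the tested members was -1.58, -3.24 and -1.29 in the same order, beside medians of -0.00, -0.01 and -0.08 over all genes. These medians and shares depend on TMM, which places the bulk of genes near 0. Scaling by library size alone shifted all fold changes by -0.36, -0.39 and -0.03. Of the 8382 genes, 1899 were then lower in 10d and 2911 in 20d, both against Cont, and 6 and 8 of the 8 tested members were called. A gene passes the filter only if enough libraries hold counts, and Csf1r, Mpeg1 and Fn1 held few counts in 20d. Members that pass through their Cont counts can show a fall more readily than a rise. The members were also chosen with earlier results of these data known. The counts and medians of the members are therefore a description, and they cover the 8 tested members only. The members of which every library was lower than every library of the other group numbered 5, 7 and 2 of 9, Vcan included, in 10d against Cont, 20d against Cont and 20d against 10d, beside 8.17%, 20.0% and 13.4% of all genes tested. No member passed the test of a difference between the first and the later 10 days, beside 5.57% of all genes with a larger fall or smaller rise in the later interval and 0.429% with the opposite, and at an unadjusted p under 0.05 there was none either. In the test for any difference among the 3 groups, at the threshold of 0.0001, Lyz2, Ctss, Aif1 and Mpeg1 passed, beside 6.13% of all genes, and 2 members passed without Cont replicate 2, without Cont replicate 3 or without 20d replicate 2. The pairwise counts moved with single libraries. Without 10d replicate 1, 6 members were lower in 20d against 10d, beside 12.6% of all genes, and the counts of 5 and 7 against Cont did not change. Without 10d replicate 2, 2 were lower in 20d against 10d, beside 9.13% of all genes. Without Cont replicate 2, 3 were lower in 10d against Cont, beside 3.39% of all genes.

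**Figure D1:**
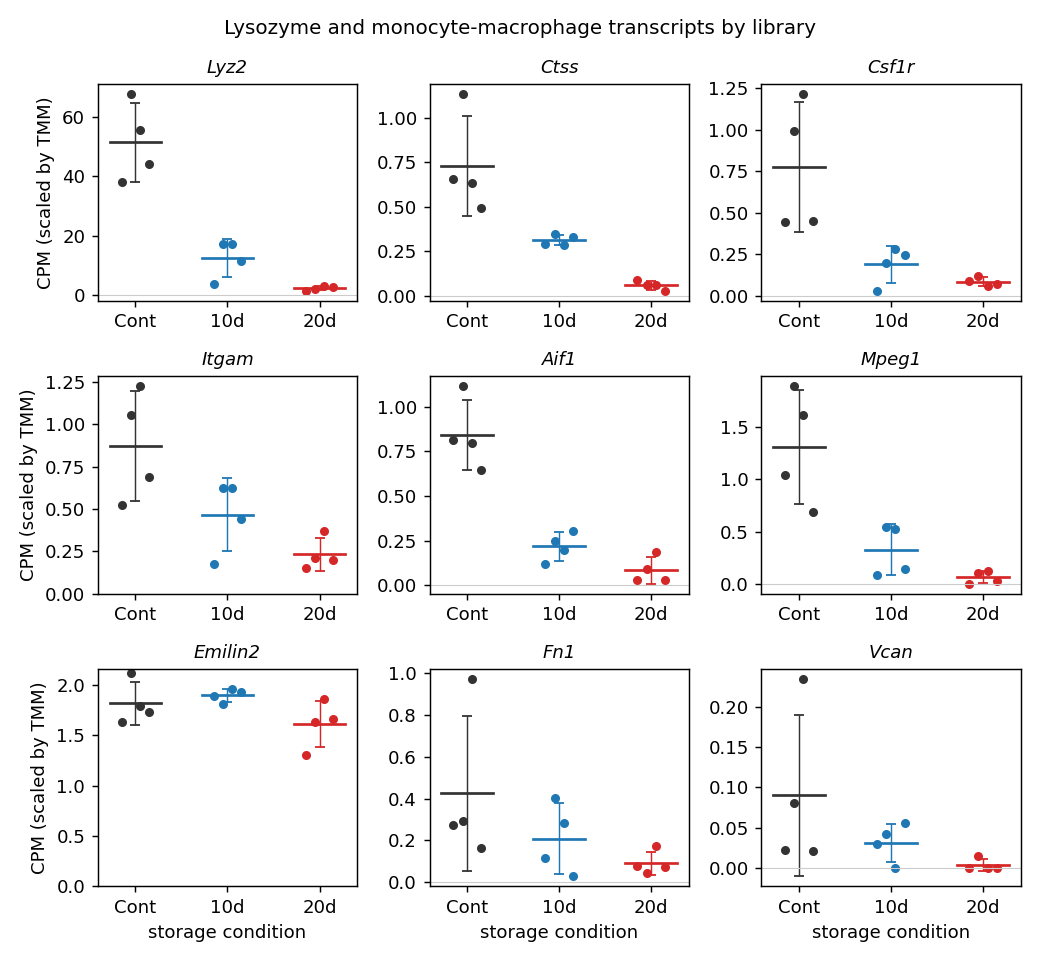
Level of each member in CPM scaled by TMM (y axis, linear) in the 4 libraries of Cont, 10d and 20d (points), with the group mean (wide line) and SD (error bar). The mean of Lyz2 declines from 51.5 through 12.4 to 2.11 CPM, whereas the Emilin2 libraries of the 3 groups overlap between 1.31 and 2.12 CPM.

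Among the lysosomal and antimicrobial members, Ctss encodes cathepsin S, a cysteine protease that trims the invariant chain of MHC class II molecules. Its counts were 58, 112, 54 and 46 in the Cont libraries, 20, 25, 20 and 24 in the 10d libraries and 6, 4, 4 and 2 in the 20d libraries. The groups did not overlap in any pair, and the 10d libraries were closer to each other than those of any other member that fell in 10d. Its log2 change was -1.21 (SE 0.31, adjusted p = 0.0121 by edgeR) in 10d against Cont and -3.58 (SE 0.38, adjusted p = 1.72e-06) in 20d against Cont. Between 10d and 20d it fell further, with a log2 value of -2.36 (SE 0.40) that passed at an adjusted p of 0.00065 by edgeR. The first of these calls rested on 1 library, since without Cont replicate 2 the value was -0.92 with an adjusted p of 0.0878.

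Mpeg1 encodes perforin-2, a pore-forming protein that macrophages use against bacteria. Its counts were 92, 187, 138 and 64 in Cont, 6, 39, 37 and 10 in 10d, and 0, 7, 8 and 2 in 20d. All Cont libraries were above all others, while those of 10d and 20d overlapped. On the log2 scale the change was -2.01 (SE 0.50, adjusted p = 0.0115 by edgeR) in 10d and -4.33 (SE 0.63, adjusted p = 4.16e-05) in 20d, both against Cont. In 20d against 10d it was -2.32 (SE 0.69, adjusted p = 0.0282 by edgeR). Few counts stood behind the later values, and the 20d against 10d call was lost without 10d replicate 2, 10d replicate 3, 20d replicate 1 or 20d replicate 4 (adjusted p = 0.0978, 0.0894, 0.0698 and 0.0795, edgeR). The 10d against Cont call was lost without Cont replicate 2 (adjusted p = 0.0525, edgeR).

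Csf1r encodes the receptor tyrosine kinase for Csf1 and interleukin-34, on which monocytes and macrophages depend for survival. Its counts were 39, 98, 104 and 42 in Cont, 2, 14, 20 and 18 in 10d, and 6, 8, 4 and 5 in 20d. Every stored library was below every Cont library, and 10d replicate 1, with 2 counts, was below all 20d libraries. The fitted log2 change was -2.02 (SE 0.46, adjusted p = 0.00572 by edgeR) in 10d against Cont and -3.15 (SE 0.51, adjusted p = 0.000117) in 20d against Cont. In 20d against 10d it was -1.13 (SE 0.56, adjusted p = 0.192 by edgeR), and without 10d replicate 1 it was -1.48 with an adjusted p of 0.0436.

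Aif1, which encodes the calcium-binding protein IBA1 that bundles actin in macrophages and microglia, behaved much like Csf1r. Its counts were 72, 110, 68 and 60 in Cont, 8, 18, 14 and 22 in 10d, and 2, 6, 12 and 2 in 20d. No stored library reached a Cont library, and 20d replicate 3, with 12 counts, lay within the 10d range. Its change was, in log2, -1.94 (SE 0.39, adjusted p = 0.00234 by edgeR) in 10d and -3.33 (SE 0.45, adjusted p = 1.80e-05) in 20d against Cont. In 20d against 10d the value of -1.39 (SE 0.49) missed the threshold with an adjusted p of 0.0612 by edgeR. It passed with DESeq2 (adjusted p = 0.0322) and without 20d replicate 3 (adjusted p = 0.0109, edgeR) or 10d replicate 1 (adjusted p = 0.0358, edgeR). It also passed with the replicate number as a block (adjusted p = 0.0363, edgeR).

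Itgam encodes the integrin alpha chain CD11b, which pairs with Itgb2 to form complement receptor 3 on monocytes and neutrophils. Its counts were 46, 104, 105 and 64 in Cont, 12, 45, 44 and 32 in 10d, and 10, 14, 24 and 14 in 20d. In counts every 10d library was below every Cont library, but in CPM, which takes the library size into account, the highest 10d value of 0.627 exceeded the lowest Cont value of 0.521. The 10d and 20d libraries overlapped, whereas the Cont and 20d libraries were apart. The log2 fold change was -0.90 (SE 0.36, adjusted p = 0.121 by edgeR) in 10d against Cont and -1.90 (SE 0.39, adjusted p = 0.001) in 20d against Cont. In 20d against 10d it was -1.01 (SE 0.41, adjusted p = 0.102 by edgeR). Both values that missed the threshold passed in other fits. That of 10d against Cont passed with scaling by library size alone and without Cont replicate 1 (adjusted p = 0.0339 and 0.0487, edgeR), and that of 20d against 10d without 10d replicate 1 (adjusted p = 0.0235, edgeR). With the replicate number as a block both passed, in the same order (adjusted p = 0.0117 and 0.0205, edgeR).

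Of the members that encode matrix proteins, Emilin2 stood apart. It encodes an elastin microfibril interface protein that is secreted to the extracellular matrix. Its counts were 144, 209, 153 and 161 in Cont, 129, 130, 138 and 140 in 10d, and 87, 109, 120 and 117 in 20d. On the CPM scale the means were 1.82 ± 0.211, 1.90 ± 0.0651 and 1.62 ± 0.229 (SD, n = 4), and the libraries of the 3 groups overlapped. The log2 fold change was 0.06 (SE 0.13, adjusted p = 0.846 by edgeR) in 10d against Cont, -0.17 (SE 0.14, adjusted p = 0.366) in 20d against Cont and -0.23 (SE 0.14, adjusted p = 0.281) in 20d against 10d. Scaling by library size alone lowers all genes by 0.39 on the log2 scale in 20d against Cont relative to the TMM scale, and Emilin2 then passed with -0.56 (adjusted p = 0.0145, edgeR).

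Fn1 encodes fibronectin, a matrix glycoprotein bound by integrins. Its counts were 24, 29, 83 and 15 in Cont, 8, 29, 20 and 2 in 10d, and 5, 3, 11 and 5 in 20d. Cont replicate 3 was well above the other Cont libraries, and the 10d libraries overlapped with both other groups. The log2 fold change was -1.01 (SE 0.62, adjusted p = 0.338 by edgeR) in 10d against Cont, -2.21 (SE 0.68, adjusted p = 0.0176) in 20d against Cont and -1.20 (SE 0.72, adjusted p = 0.289) in 20d against 10d. The 20d against Cont call was lost without Cont replicate 3 (-1.38, adjusted p = 0.131, edgeR) or without 20d replicate 2 (adjusted p = 0.0530, edgeR).

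Vcan encodes versican, a chondroitin sulfate proteoglycan that classical monocytes express. Its counts were 2, 8, 20 and 2 in Cont, 2, 3, 0 and 4 in 10d, and 0, 1, 0 and 0 in 20d. The Cont and 20d libraries did not overlap, but most values were at the lower limit of detection and no test was made across genes. Summed over the libraries of a group and scaled to their total counts, the 20d to Cont ratio was 0.0327 with an exact 95% interval of 0.000802 to 0.196. The 10d to Cont ratio was 0.285 (exact 95% interval 0.120 to 0.611). These intervals cover counting error only and not the spread between libraries, in which Cont replicate 3 carried 20 of the 32 Cont counts.

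**Figure D2:**
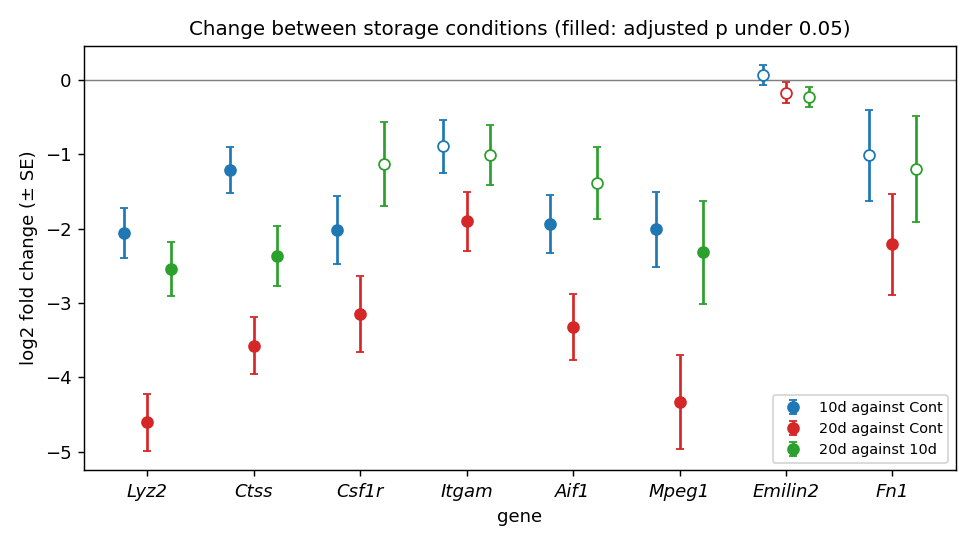
Log2 fold change with SE (y axis) of the 8 tested members (x axis) in 10d against Cont, 20d against Cont and 20d against 10d, with filled points for an adjusted p under 0.05 by edgeR. Lyz2 and Mpeg1 are lowest in 20d against Cont at -4.61 and -4.33, and all 3 Emilin2 points lie between -0.23 and 0.06.

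The members thus changed unequally. In order of their log2 fold change in 20d against Cont, Lyz2 (-4.61), Mpeg1 (-4.33), Ctss (-3.58), Aif1 (-3.33), Csf1r (-3.15), Fn1 (-2.21), Itgam (-1.90) and Emilin2 (-0.17) followed each other. Neighbours in this order were closer to each other than the sum of their SEs, except Itgam and Emilin2. Lyz2 took 86.8% to 90.0% of the counts of all members in the Cont libraries, 56.3% to 80.5% in 10d and 41.1% to 54.1% in 20d. Emilin2 took 21.1% to 35.5% of the counts of the members other than Lyz2 without storage, 42.9% to 69.0% at 10d and 65.6% to 79.6% at 20d. Both shares were apart between the Cont and the stored libraries, while the Emilin2 share overlapped between 10d and 20d.

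To compare levels between genes, the authors' TPM values, which are per length, were used. Lyz2 had a mean of 68.0 ± 22.5 TPM in Cont, 12.4 ± 6.83 in 10d and 1.95 ± 0.649 in 20d (SD, n = 4). No other member came near it, as the next in Cont were Emilin2 with 1.15 ± 0.222, Ctss with 1.14 ± 0.474 and Aif1 with 1.06 ± 0.287 TPM, which did not differ beyond their spread. Itgam followed with 0.520 ± 0.242, Mpeg1 with 0.514 ± 0.247 and Csf1r with 0.441 ± 0.261 TPM, again within their spread. Fn1 with 0.135 ± 0.131 and Vcan with 0.0197 ± 0.0234 TPM were lowest. In 20d the mean of Emilin2 was 0.720 ± 0.121 TPM and every other member except Lyz2 had a mean below 0.1 TPM.

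The question of whether Lyz2 moved more than other transcripts of related function was addressed within libraries. From the members and 7 lists of related genes, the 5 nearest to Lyz2 in mean log2(TPM + 0.1) over the 12 libraries were taken, and these were Itga4, Cst3, Cd44, Itgax and Selplg. None was within 2-fold of the mean of Lyz2, which was 27.5 TPM, and their own means were 4.68, 3.31, 2.97, 2.39 and 2.57 TPM. Choosing by the mean over all libraries favours genes that fell little, and this limits the comparison. The lists hold lysosomal, adhesion and matrix genes too, and the cells that these 5 transcripts come from were not tested. The log2 ratio of Lyz2 to the other gene was lower after the longer time in all 15 comparisons. In 14 of them the exact two-sided permutation p was 0.0286, the smallest that 4 against 4 libraries can give (0.0306 after adjustment over the 15). The study picked Lyz2 on these libraries for its fall, and the 15 tests share the same Lyz2 values. They are therefore not independent evidence that Lyz2 moved more.

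Itga4 encodes the alpha 4 integrin chain, which binds fibronectin and Vcam1. The log2 ratio of Lyz2 to Itga4 ranged from 3.15 to 3.82 before storage. It ranged from -0.12 to 2.13 after 10 days and from -1.47 to -0.73 after 20 days, so that Lyz2 passed from the more to the less abundant transcript of this pair. The change was -4.46 (SE 0.23) in 20d against Cont. Itga4 itself moved little in CPM, at -0.11 on the log2 scale (SE 0.09, adjusted p = 0.408 by edgeR), which became -0.50 with an adjusted p of 0.00692 under scaling by library size alone.

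Cst3 encodes cystatin C, an inhibitor of cathepsins. The ratio of Lyz2 to Cst3 changed by -5.10 (SE 0.38) in 20d against Cont, the largest of the 5. In 20d against 10d the change was -2.35 (SE 0.74), the libraries overlapped and the exact permutation p was 0.0857. Cst3 was higher in 20d than in Cont on the TMM scale by 0.54 (SE 0.15, adjusted p = 0.00895, edgeR), a call that was lost with library size alone (0.16, adjusted p = 0.353). For Itgax, the CD11c integrin chain of dendritic cells and monocytes, the ratio changed by -4.97 (SE 0.22) in 20d against Cont.

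Cd44 encodes a receptor for hyaluronan, a sugar polymer of the matrix. The ratio of Lyz2 to Cd44 changed by -3.73 (SE 0.36), and that to Selplg, the P-selectin ligand of leukocytes, by -3.75 (SE 0.22), both in 20d against Cont. Cd44 and Selplg were also lower themselves, with log2 values of -0.88 (SE 0.14, adjusted p = 9.15e-05) and -0.89 (SE 0.16, adjusted p = 0.000346) by edgeR. Since the choice of the 5 transcripts left out genes that fell as Lyz2 did, these ratios describe Lyz2 beside these genes and not beside monocyte transcripts as a whole.

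The transcripts nearest to Lyz2 in the Cont libraries alone were taken as well. This choice was added after the data had been seen and is given without a test of the ratio. These transcripts were Ctsd, Ctsb, Tyrobp, Itga4 and Cd44, of which only Tyrobp fell as steeply as Lyz2 in 20d against Cont. With them the median change in the log2 ratio of Lyz2 was -2.06 in 10d against Cont. Ctsd, the aspartic protease cathepsin D, had 94.4 ± 8.37 TPM in Cont and 115 ± 8.16 in 20d (SD, n = 4). Ctsb, the cysteine protease cathepsin B, had 274 ± 31.8 TPM in Cont, 323 ± 9.82 in 10d and 226 ± 8.24 in 20d. On the TMM scale its log2 change was 0.63 (SE 0.08, adjusted p = 4.69e-05, edgeR) in 10d against Cont. In 20d against 10d it was -0.41 (SE 0.08, adjusted p = 0.00188, edgeR). Its direction in 20d against Cont depended on the scale, at 0.22 in log2 CPM scaled by TMM (SE 0.08, adjusted p = 0.0373, edgeR) and -0.16 (adjusted p = 0.0967, edgeR) with library size alone. Tyrobp, the adapter DAP12 of activating receptors on myeloid and natural killer cells, had 11.4 ± 2.60 TPM in Cont, 2.95 ± 1.61 in 10d and 0.243 ± 0.125 in 20d. Its log2 fold change in 20d against Cont was -5.04 (SE 0.44, adjusted p = 1.87e-07 by edgeR), beside -4.61 (SE 0.38) for Lyz2. Whether Lyz2 and Tyrobp differ was not tested.

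**Figure D3:**
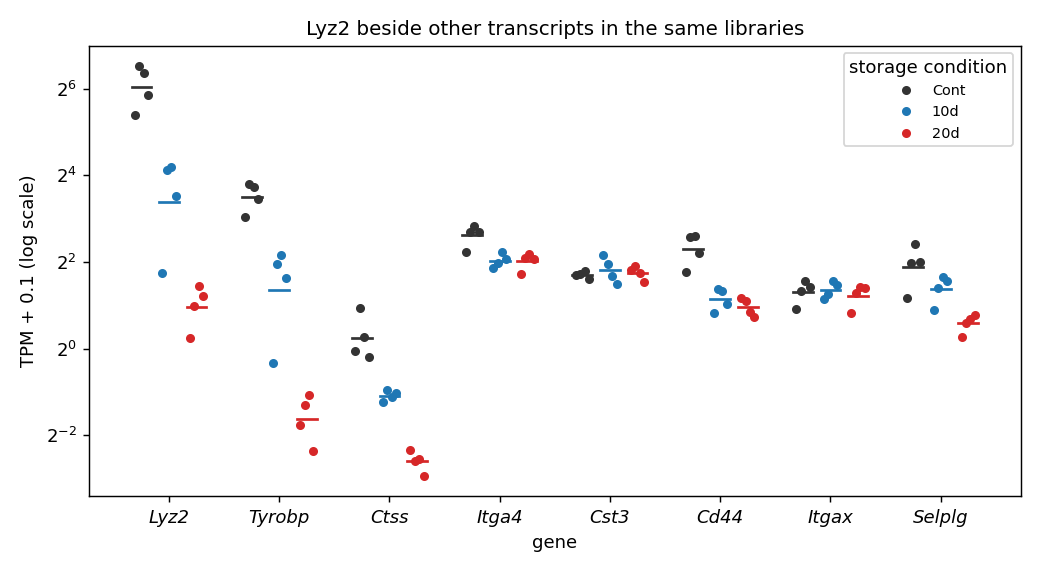
TPM + 0.1 (y axis, log2 scale) of Lyz2, Tyrobp, Ctss and the 5 transcripts nearest to Lyz2 over all libraries, in the 4 libraries of each group (points) with the mean of the log2 values (line). Lyz2, Tyrobp and Ctss descend in 2 steps, and Itga4 is lower in every stored library (3.18 to 4.55 TPM) than in every Cont library (4.60 to 6.95 TPM), a smaller step than that of Lyz2.

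Among the other members, the ratio of Lyz2 in log2(TPM + 0.1) changed by -4.45 (SE 0.20) against Emilin2 and by -2.21 (SE 0.39) against Ctss in 20d against Cont. The pseudocount of 0.1 TPM exceeds most 20d levels of the low members, so these values understate the fall of Ctss, Aif1, Csf1r and Mpeg1 and do not rank them. They are given as a description without a test.

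The transcripts whose log2 CPM was most like that of Lyz2 over the 12 libraries, among 3339 genes with a mean of at least 1 CPM, were Lrg1, Anxa1, Fgr, Chi3l1 and Ywhaz, each with a Pearson r of 0.99. The 12 points share their 3 groups and the depth of each library, and the coefficient is a description. Lrg1 encodes a secreted leucine-rich glycoprotein found in neutrophil granules, Anxa1 encodes annexin A1, and Fgr encodes a Src family kinase of myeloid cells. Their log2 fold changes in 20d against Cont were -3.51 (SE 0.34) for Lrg1, -3.87 (SE 0.34) for Anxa1 and -3.72 (SE 0.35) for Fgr. Emilin2, the only other member with a mean of at least 1 CPM, had r = 0.52 and rank 409.

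No relative of Lyz2 offered a second lysozyme signal. Lyc2 (chromosome 7, 52886883 to 52894446, plus strand), which lies beside Lyz2, held 0, 4, 3 and 0 counts in Cont and 0 in all stored libraries. Lyzl4 held 2 counts in Cont, 2 in 10d and 0 in 20d, and Lyzl1, Lyzl6, Spaca3, Spaca5, Lyg1 and Lyg2 were at 0 throughout. Reads of a sequence shared by Lyz2 and Lyc2 could have been assigned to either, which leaves the Lyc2 counts uncertain.

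Genes that work with the members were mostly lower in 20d too. The 7 lists held 87 symbols, of which 82 were found and 61 tested, and 46 of the 61 were lower and 5 higher in 20d against Cont, with a median log2 fold change of -2.22. In 10d against Cont 21 were lower and 7 higher (median -0.80), and in 20d against 10d 27 were lower and none higher (median -1.14). The background shares and medians over all genes are those given for the members above.

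The NADPH oxidase makes superoxide in phagosomes, with Cybb as its catalytic chain, and all 6 of its partners tested were lower in 20d against Cont. Rac2, a small GTPase, changed by -2.04 (log2, SE 0.26, adjusted p = 1.08e-05, edgeR). The cytosolic subunits Ncf1 and Ncf4 fell by 3.07 (SE 0.40) and by 2.24 (SE 0.38). Of the 6 tested genes of Csf1r ligands and signalling all were lower too, such as the ligand Csf1 with -2.58 (SE 0.43), the Src family kinase Lyn with -2.81 (SE 0.27) and the lipid kinase subunit Pik3cd with -2.70 (SE 0.32).

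Of 15 monocyte surface receptors tested, 14 were lower in 20d against Cont and none higher. Fcer1g, the shared gamma chain of Fc receptors, changed by -4.96 (log2, SE 0.32, adjusted p = 6.09e-09, edgeR), and Tlr2, which senses bacterial lipoproteins, fell by 3.01 (SE 0.38). Of the 5 myeloid transcription factors tested 4 were lower, among them Spi1 with -3.49 (SE 0.49), Klf4 with -3.46 (SE 0.64) and Cebpb with -1.98 (SE 0.47). Klf4 held at most 2 counts in a 20d library.

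The lysosomal genes were divided. In 20d against Cont, 8 of 15 were lower and 3 higher. Ctsh, a cathepsin with aminopeptidase activity, changed by -4.31 (log2, SE 0.33, adjusted p = 5.13e-08, edgeR) and Laptm5, a lysosomal membrane protein of leukocytes, by -3.09 (SE 0.23). Ctsd rose by 0.79 (SE 0.06, adjusted p = 1.29e-07, edgeR), and with library size alone it rose by 0.40 (adjusted p = 0.000965). The summed level of the lysosomal list was 352 to 446 TPM in Cont, 433 to 457 in the 10d libraries and 342 to 353 in the 20d libraries. Ctsb and Ctsd made up 94.6% to 98.2% of it, so the sum says little of the other genes of the list.

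Leukocyte integrins and adapters showed 5 lower and 1 higher of 8 in 20d against Cont. Itgb2, the beta chain that pairs with Itgam, fell by 3.11 (SE 0.38, adjusted p = 8.17e-06, edgeR) beside 1.90 for Itgam. Itgal, the alpha chain of LFA-1, fell by 2.67 (SE 0.42). Of the 6 tested partners of fibronectin and versican 3 were lower, including the fibronectin receptor chain Itga5 with -1.39 (SE 0.50, adjusted p = 0.0385, edgeR), and Tgm2, a transglutaminase that cross-links matrix, was higher by 0.75 (SE 0.16, adjusted p = 0.00121). The Tgm2 call was lost with library size alone (0.37, adjusted p = 0.0921).

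Markers of other blood cells moved with storage as well. The counts below stand beside 21.1% of all genes tested that were lower in 20d against Cont. In 10d against Cont 5.68% were lower and 7.86% higher. The summed level of 16 neutrophil markers, whose cells express Lyz2 and Itgam too, was 118 to 233 TPM without storage, 22.8 to 87.4 TPM at 10d and 4.77 to 14.0 TPM at 20d, and 8 of 8 tested were lower in 20d against Cont. The 8 T cell markers had a summed level of 2.85 to 3.99 TPM without storage, 0.362 to 0.597 in 10d and 0 to 0.0952 in 20d, with 4 of 4 tested lower. The 8 B cell markers reached 3.75 to 5.81 TPM without storage, 4.77 to 6.21 in 10d and 0.0764 to 0.368 in 20d. Of the 8 tested, 3 were higher and none lower in 10d against Cont, the comparison in which Lyz2 had already fallen. All 8 were lower in 20d against Cont. The 13 platelet markers found reached 1.16 to 2.47 TPM without storage, 5.24 to 7.76 in 10d and 0.978 to 1.47 in 20d, and 6 of 9 tested were higher in 10d against Cont. The members themselves added up to 45.1 to 97.8 TPM before storage, with 4.65 to 20.3 TPM left in 10d and 1.88 to 3.97 TPM in 20d. The part of these cell types in the values of Lyz2 and the other members was not tested.

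**Figure D4:**
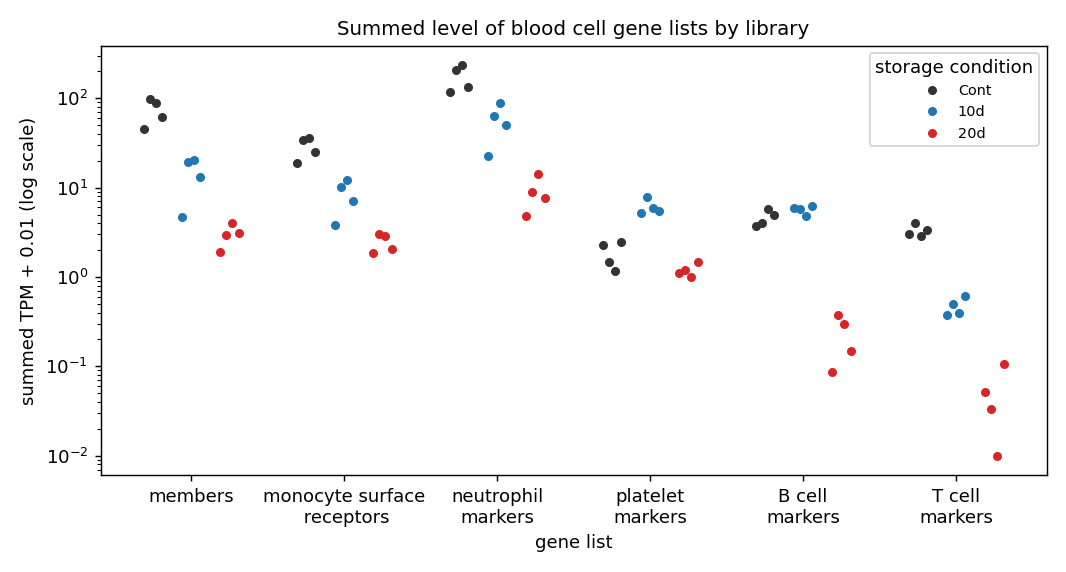
Summed TPM + 0.01 (y axis, log scale) of the members, the monocyte surface receptors and the neutrophil, platelet, B cell and T cell markers (x axis) in the 4 libraries of Cont, 10d and 20d. The member and neutrophil sums decline from Cont to 10d to 20d without overlap, whereas the platelet sum is highest in 10d at 5.24 to 7.76 TPM and the B cell sum is low in 20d only.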

How the data were processed

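The authors sequenced rRNA-depleted libraries of purified RBCs with paired reads of 36 bases, mapped them in CLC Genomics Workbench 22.0 to mRatBN7.2 and deposited 1 table. The deposited counts are raw counts per gene and library; whether a read pair counts as 1 or 2 is not given in the sources used here. The deposited TPM values were used for levels. The deposited RPKM values were not used, nor was the deposited signal that the authors call CPM, which are counts over an adjusted library size. The 24 columns of the authors' own fold changes and p-values were not used.

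Counts were tested with edgeR 4.0.16 in R 4.3.3 (filterByExpr, TMM, quasi-likelihood F-test over all 12 libraries, group only), with Benjamini-Hochberg adjustment at 0.05, or 0.0001 for any difference. CPM in the text were computed from the counts. Total counts of 65735930 to 85996710 limit values of a few counts most. Lyz2 was compared with other genes by exact permutation. Fits were tested on simulated data. Alternatives were DESeq2 1.42.0, other scalings and filters, a replicate block, other pseudocounts and leaving out each library.

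Named were all members, the 5 comparators, per list the 3 genes of lowest adjusted p in 20d against Cont, the 5 most similar patterns and the lysozyme family; of these Chi3l1, Ywhaz and some list genes appear by name or count only, and 1 list gene is not reported here. Ctsb, Tyrobp and Ctsd as transcripts near Lyz2 in Cont were chosen after their values were seen. The members and lists were chosen with earlier results of these data known. No row of the table carries the name Cybb, and it was not analysed here.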

Additional observations from a re-analysis of the deposited data

Results flagged for a closer look

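In 2 of 114 sets of 4 libraries, 1 library lay far from the other 3 of its group, measured by its gap to the nearest library over the range of the group. Chance gives this in about 1 of 20 groups. Itga4 in 20d replicate 1 had a log2 CPM of 2.81, below the other 20d libraries. Spi1 in Cont replicate 1 had a log2 CPM of 0.033, below the other Cont libraries.

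Of the genes named by the rules above, 3 changed by different amounts in the first and the later 10 days. The edgeR test was on the change from 10d to 20d minus that from Cont to 10d. Over all genes tested, 5.57% passed with a negative difference and 0.429% with a positive one. The count of 3 was not tested against these shares. For Ctsd this difference was -0.52 (adjusted p = 0.00731), since most of its rise lay in the first 10 days. For Fcer1g it was -2.16 (adjusted p = 0.0116) and for Pik3cd -1.93 (adjusted p = 0.0281), since most of their fall lay in the later 10 days. With scaling by library size alone none of the 3 passed (-0.21, -1.85 and -1.59, with adjusted p = 0.46, 0.0599 and 0.129), and no member passed this test under either scaling. Fcer1g also missed the threshold without 10d replicate 3 (adjusted p = 0.0567). Pik3cd missed it without Cont replicate 2, Cont replicate 4, 10d replicate 2, 10d replicate 3, 10d replicate 4 or 20d replicate 1 (adjusted p from 0.0538 to 0.148). Ctsb, which was chosen after its values were seen and is not in this count, passed as well (-1.04, adjusted p = 0.000115, edgeR). It was higher in 10d than in Cont and lower in 20d than in 10d.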

How the results depend on the processing

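Over the alternatives run, the 15 calls of tested members in pairwise comparisons held in 279 fits and were lost in 8, and values that had missed the threshold passed in 14 and missed it again in 304, interval tests included. None reversed. Lyz2 kept its calls in the 3 pairwise comparisons in all of them. Of all 2950 values of named genes compared, 80 calls were lost, 58 gained and none reversed, and 90 uncalled values changed sign.

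Genes past the threshold of any difference numbered 514, and 1306 with DESeq2, 1292 with the likelihood ratio test, 1521 with no filter, 218 with 1 CPM in 4 libraries and 252 to 601 leaving out 1 library. In 10d against Cont there were 1135, 1997 with library size alone and 739 to 1320 leaving out 1 library. With 1 CPM in 4 libraries 1019 in place of 2843 were called in 20d against Cont and 677 in place of 1338 in 20d against 10d, and of the members only Lyz2 and Emilin2 passed this filter and were tested, of which Lyz2 was called. The difference between the intervals was called in 503 genes, and in 273 to 518 leaving out 1 library. Leaving out 1 library moved the higher calls of 20d against 10d (283) to between 120 and 532. Scaling by library size alone changed the split to 98 higher and 1899 lower in 10d against Cont (659 and 476 with TMM), 99 and 2911 in 20d against Cont (1075 and 1768), 68 and 909 in 20d against 10d (283 and 1055), and 332 and 171 for the intervals (36 and 467), and it shifted all fold changes by -0.36, -0.39 and -0.03 in the 3 pairwise comparisons. The cause of these changes was not tested.

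The median change of the Lyz2 ratio in 20d against Cont was -4.01 with a pseudocount of 1. The alternative with comparators within 2-fold gave no gene. Leaving out a library, or permuting within replicate numbers, left too few arrangements to pass.

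Under a replicate block, 1023 genes differed among the groups and 883 between the intervals, and Itgam passed in 10d against Cont and 20d against 10d (adjusted p = 0.0117 and 0.0205) and Aif1 in 20d against 10d (0.0363). Libraries with the same number deviated together weakly (r from 0.02 to 0.21, over 0.1 in 5 of 12 pairs), beside r from -0.19 to 0.09 between different numbers. Of the 12 libraries, 9 were closest to a library of their own number. The paper describes the samples as paired, and the blood of each rat was divided among the conditions. The rat behind a number is not given, so the numbers were not taken as pairs in the main fit. At this depth, Vcan and the 20d values of Mpeg1 and Klf4 rest on few counts.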
